A study of Mus musculus with 12 samples.

Results

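Id4 and Hey1 are regulators of the basic helix-loop-helix (bHLH) family, and their mRNA was measured here in mouse primary mixed glia given interleukin-1β (IL-1β). The 2 genes were chosen by the measured change of their mRNA with IL-1β in wild-type glia, so that contrast is given below as a description with no test. Every probe whose annotated gene symbol was Id4 or Hey1 was taken: 1 probe for Id4 (probe 882) and 2 for Hey1 (probes 1209 and 7963), which makes 3 of the 8734 probes and 2 of the 5723 singly annotated genes on the array. All 3 were among the 5713 probes with a value on all 10 arrays used. The groups were IL-1R1-/- glia, which lack the type 1 IL-1 receptor, given 10 ng/ml rrIL-1β for 4 h; IL-1R1-/- glia given vehicle; wild-type glia given the same IL-1β for the same time; and wild-type glia given vehicle. Cells were kept for 10 to 12 days after isolation, and each group held 3 independent biological replicates with the treatments paired within a culture. Total RNA was reverse-transcribed with radiolabelled dCTP and hybridised to arrays. The labels do not state strain, animal age, how the receptor gene was disrupted or whether animals were pooled.

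Id proteins carry a helix-loop-helix but no DNA-binding basic region. They pair with E proteins such as Tcf4 and keep them, and the tissue-restricted bHLH factors that need them, off DNA; Id genes are widely known as targets of bone morphogenetic protein (BMP) signalling through SMAD factors, and Id4 is made in neural progenitors and astrocytes. Hey1 does bind DNA: it is a bHLH repressor of the Hes and Hey family and a target of Notch signalling, in which a Jagged or Delta ligand on one cell leads to cutting of the Notch receptor on its neighbour by ADAM proteases and γ-secretase, and the freed receptor fragment joins RBPJ on DNA.

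Id4 lies on mouse chromosome 13 (48261116 to 48266028) and Hey1 on chromosome 3 (8663359 to 8667038) in RefSeq's annotation of GRCm38.p6. Of the 2 genes, Id4 matched RefSeq's promoter table and Hey1 did not. The Id4 window is shown because it lets the motifs of RBPJ and of Hes-type factors be looked for in front of a gene that was lower with IL-1β. It covers chr13:48260866-48261165 on the plus strand, 250 bases before the start of the gene and 50 after it, and capitals mark the motif matches found.
Id4 promoter window: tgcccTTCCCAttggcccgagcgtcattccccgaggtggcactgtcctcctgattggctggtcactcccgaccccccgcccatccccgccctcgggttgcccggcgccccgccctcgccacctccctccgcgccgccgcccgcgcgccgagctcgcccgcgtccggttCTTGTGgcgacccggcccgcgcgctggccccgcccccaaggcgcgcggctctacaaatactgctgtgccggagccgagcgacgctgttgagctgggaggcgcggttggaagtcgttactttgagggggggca
The RBPJ core TGGGAA, searched on both strands like every motif here, had 1 match, on the minus strand, starting 245 bases before the start of the gene. At least 1 match was present in 25.6% of all 32851 promoter windows of this length. The N-box CACNAG of Hes-type repressors had 1 match, also on the minus strand and 82 bases before the start, and 42.5% of all windows held one. The E-box CANNTG, its form CACGTG, the Hes and Hey site CACGNG and the NF-κB consensus had 0 matches, against 72.3%, 7.15%, 27.5% and 5.8% of all windows; CACGTG is also a CANNTG and a CACGNG match. These are letter matches and say nothing of binding.

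Both columns of IL-1R1-/- replicate 3 were left out because they repeat other columns. Its vehicle column equalled wild-type vehicle 1 at one ratio (1.12) at 5959 of 5982 shared probes, and its IL-1β column equalled IL-1R1-/- vehicle 1 at a ratio of 1.67 at 6531 of 6584, both within 1e-04 on the log2 scale. No other pair of columns matched at more than 0.0857% of probes. This leaves 2 culture pairs of IL-1R1-/- glia and 3 of wild-type glia. The median deposited intensity ran from 4649 to 60399 over the 10 arrays, and 370 to 1342 probes per array had no value. The Il1r1 probe lay between 13.96 and 14.17 (log2) in IL-1R1-/- IL-1β, 13.86 and 14.06 in IL-1R1-/- vehicle, 14.01 and 15.03 in wild-type IL-1β and 13.73 and 14.06 in wild-type vehicle; the labels do not say whether it lies in the disrupted part of the gene, so it does not check the genotype labels. In these mixed cultures, fewer cells of a type and less RNA per cell cannot be told apart.

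Changes in wild-type glia also varied with the place of a probe in the array's list. The first part of the list, with 2696 tested probes, had a median log2 change of -0.20 (84.5% of probes below 0), and the second part, with 3017, a median of 0.15 (29.5% below 0), with a repeating wave inside each plate-sized block. Levels below are quantile-normalized log2 intensities, and the main values are also given with this position trend removed, by a smooth surface fitted to each array over plate rows and columns inferred from the list.

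The Id4 probe read 14.47, 14.22 and 13.36 (log2) in wild-type IL-1β cultures 1, 2 and 3, against 16.13, 15.52 and 15.19 in their vehicle partners. All IL-1β arrays lay below all vehicle arrays and each culture was lower with IL-1β. Over the whole table, 7.39% of tested probes had every wild-type IL-1β array below every vehicle array, and 20.6% were lower in every wild-type pair. The changes were -1.66, -1.30 and -1.83 in the 3 pairs, and the fitted change was -1.60 ± 0.19 (SE), or 3.03-fold lower with IL-1β. The IL-1β value of culture 3 (13.36) stood at percentile 1.61 of its array, near the bottom of the range, and at 10.8 with the trend removed. Only 1 of the 5713 tested probes had a lower fitted change; over the table, 1.63% passed the test as lower. After removal of the trend the levels were 14.54, 14.09 and 13.86 with IL-1β and 16.14, 15.17 and 14.91 with vehicle, still without overlap, as at 4.03% of all tested probes; 14.9% were lower in every pair on that scale. The pair changes were then -1.60, -1.08 and -1.05, so the order of the cultures differed between the scales. The fitted change was -1.24 ± 0.15 (SE), 2.36-fold lower, and no tested probe was lower.

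The same contrast is visible in the deposited intensities before any normalization between arrays. Id4 had 19281, 4396 and 12080 in wild-type IL-1β cultures, against 78158, 8730 and 40079 in wild-type vehicle cultures, so vehicle exceeded IL-1β by 4.05, 1.99 and 3.32 times.

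Hey1 probe 1209 read 14.43, 14.19 and 14.07 in wild-type IL-1β cultures 1, 2 and 3, against 15.61, 14.94 and 15.94 in wild-type vehicle cultures. The groups did not overlap, as at 7.39% of all tested probes, and each pair was lower with IL-1β, as at 20.6%. The IL-1β arrays of this probe lay closer together than its vehicle arrays. The pair changes were -1.18, -0.75 and -1.86, and the fitted change was -1.27 ± 0.21 (SE), 2.41-fold lower with IL-1β. Once the trend was removed, the levels were 14.41, 14.45 and 14.35 with IL-1β and 15.26, 14.79 and 15.81 with vehicle; the change was -0.88 ± 0.18 (SE), 1.84-fold lower. Culture 2 showed the smallest change in both versions (-0.34 with the trend removed) and culture 3 the largest (-1.46). In the deposited intensities vehicle exceeded IL-1β by 2.57, 1.5 and 3.19 times in the 3 wild-type pairs.

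The other Hey1 probe, 7963, did not share this pattern in the quantile-normalized values. It read 14.12, 14.56 and 14.15 in wild-type IL-1β cultures and 14.48, 14.06 and 14.47 in wild-type vehicle cultures, so the groups overlapped. Cultures 1 and 3 were lower with IL-1β (-0.36 and -0.32) and culture 2 was higher (0.50), with a fitted change of -0.06 ± 0.21 (SE). After trend removal it read 14.14, 13.99 and 14.05 with IL-1β and 14.90, 14.19 and 14.67 with vehicle, which do not overlap, and the change was -0.53 ± 0.14 (SE). On that scale 4.03% of all tested probes had every wild-type IL-1β array below every vehicle array. The 2 Hey1 probes thus disagreed before the trend was removed. After it both were lower in all 3 wild-type pairs, as were 14.9% of all tested probes, and probe 7963 was lower by less. The annotation used here does not say which part of the Hey1 transcript each probe reads.

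**Figure D1:**
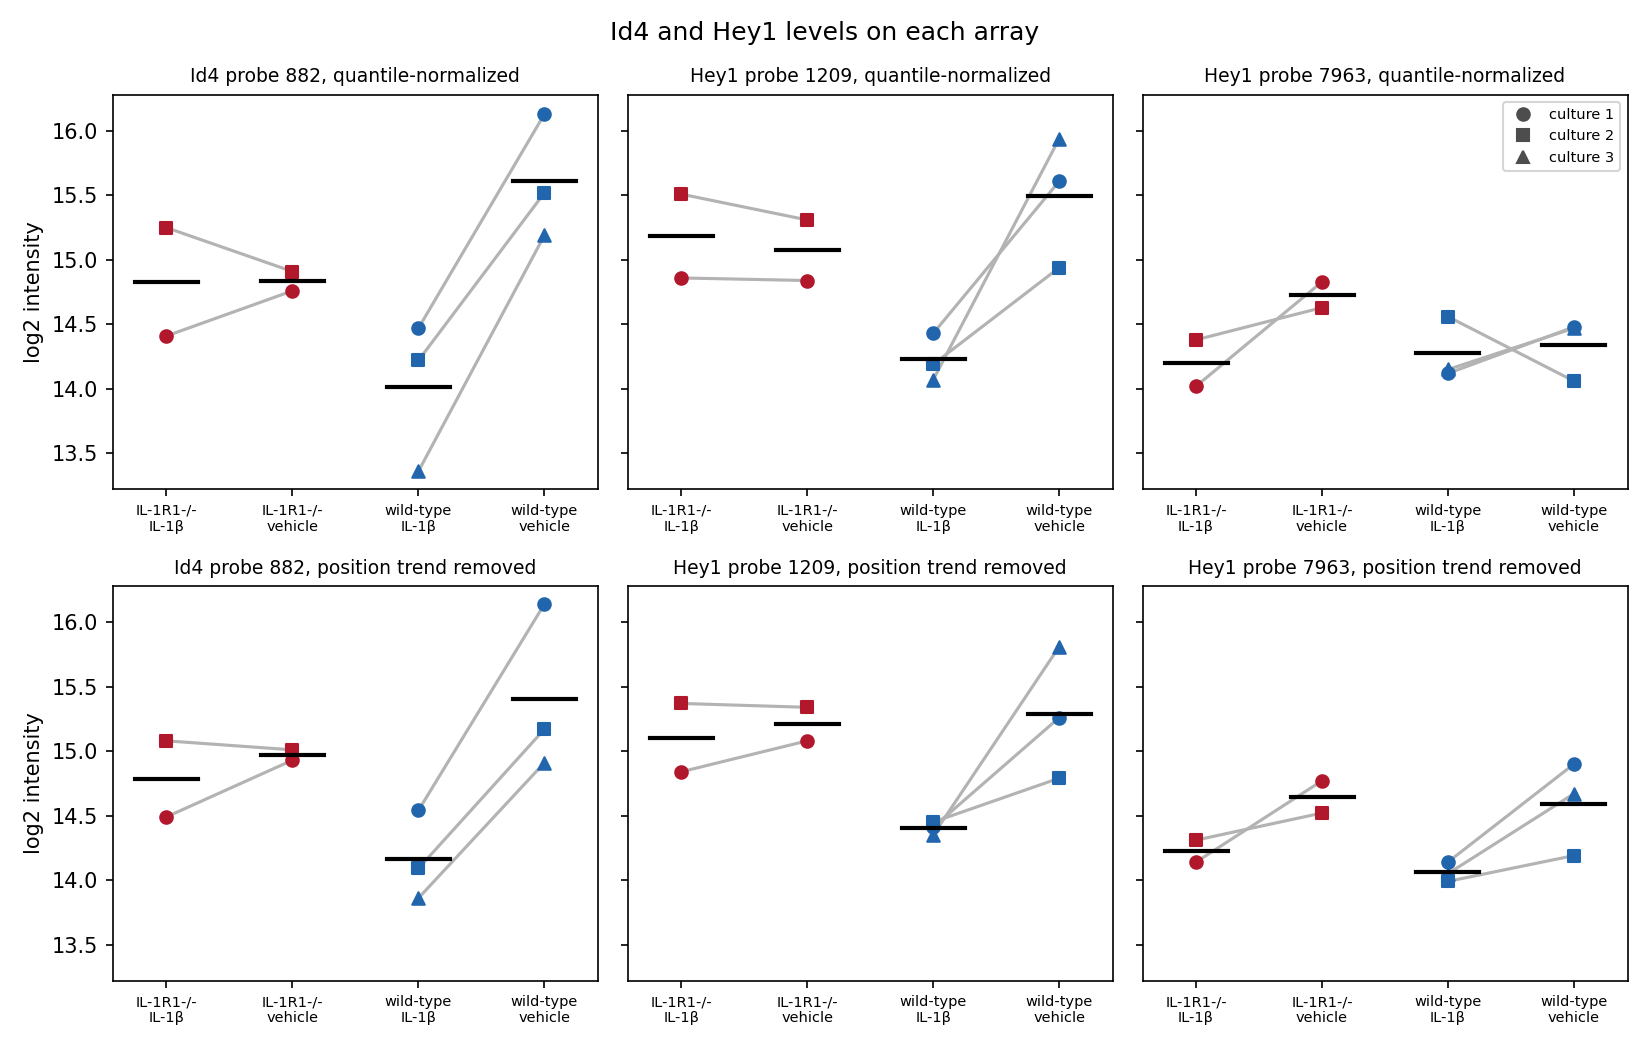
Level of each probe on each array (log2 intensity) in IL-1R1-/- IL-1β, IL-1R1-/- vehicle, wild-type IL-1β and wild-type vehicle glia, quantile-normalized above and with the position trend removed below; grey lines join the arrays of a culture and black bars are group means. For Id4 and Hey1 probe 1209 the 3 wild-type IL-1β arrays lie below the 3 wild-type vehicle arrays in both versions, and for Hey1 probe 7963 only with the trend removed.

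The members stand in different parts of the probe list. Id4 and Hey1 probe 1209 are in the first part of the list, where most probes were lower with IL-1β, and Hey1 probe 7963 is in the second part, where most were higher. The 15 tested probes within 12 places of Id4 had a median change of -0.37 in wild-type glia (-0.74 to -0.07). The 14 around Hey1 probe 1209 had a median of -0.42 (-0.90 to -0.21), and the 17 around Hey1 probe 7963 a median of 0.38 (0.14 to 0.77). Each of the 3 members was lower than every one of its neighbours. Id4 and Hey1 were chosen by this same change, which by itself favours a low place among neighbours. No share of all probes that lie below their neighbours was computed. In IL-1R1-/- glia the neighbours' medians were 0.11, 0.18 and 0.05 for Id4, Hey1 probe 1209 and Hey1 probe 7963.

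**Figure D2:**
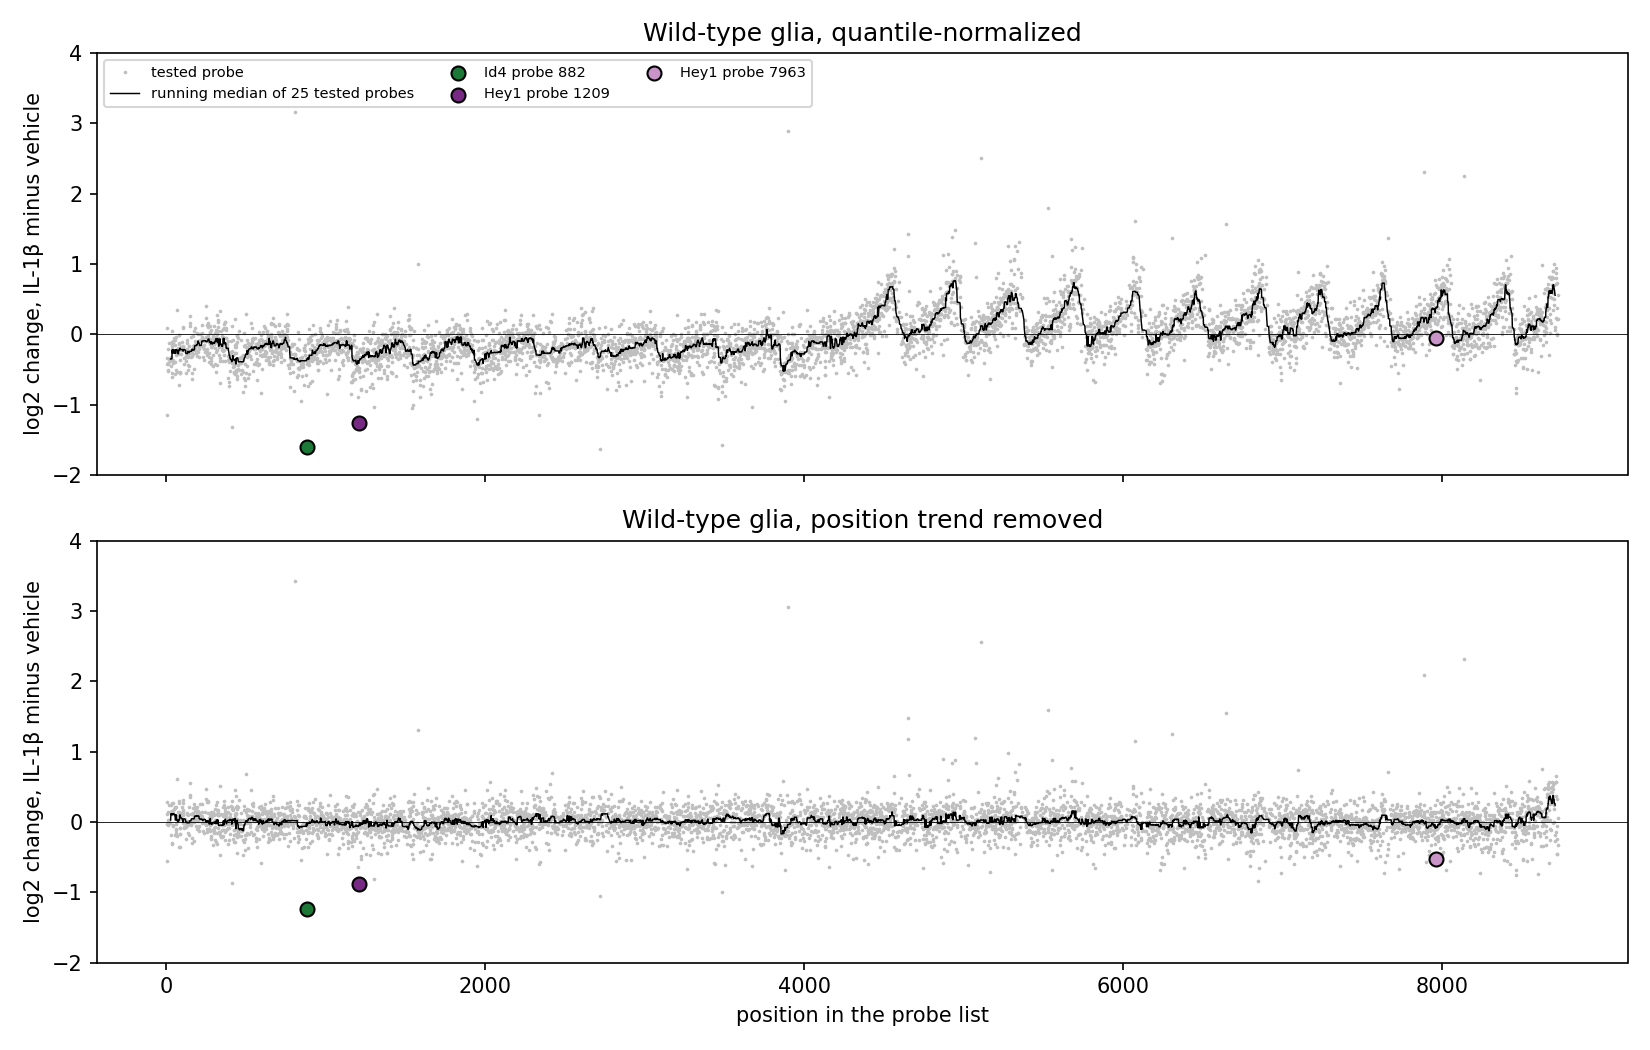
Change with IL-1β in wild-type glia (log2, IL-1β minus vehicle) of each tested probe against its position in the probe list, quantile-normalized above and with the position trend removed below; the black line is the running median of 25 tested probes. Id4 and Hey1 probe 1209 lie well under the running median in both panels, and Hey1 probe 7963 sits near 0 in the upper panel, under a running median that lies above 0 there. Id4 and Hey1 were chosen by this wild-type change.

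In IL-1R1-/- glia, arrays that were not used to choose the members, no member changed with IL-1β at an adjusted p under 0.05. Id4 read 14.41 and 15.25 in IL-1R1-/- IL-1β cultures 1 and 2, against 14.76 and 14.91 in their vehicle partners. One pair was lower with IL-1β (-0.35) and the other higher (0.35), so the groups overlapped. The fitted change was 0.00 ± 0.24 (SE), with a 95% interval of -0.51 to 0.50 (limma, adjusted p = 0.999); with the trend removed it was -0.19 ± 0.18 (interval -0.59 to 0.21; limma, adjusted p = 0.959).

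Hey1 probe 1209 read 14.86 and 15.51 in IL-1R1-/- IL-1β cultures, against 14.84 and 15.31 in IL-1R1-/- vehicle cultures. Both pairs were higher with IL-1β (0.02 and 0.20), as were 31.9% of all tested probes. In the deposited intensities both pairs were lower with IL-1β, at 0.981 and 0.897 times vehicle. The fitted change was 0.11 ± 0.25 (SE; 95% interval -0.43 to 0.66; limma, adjusted p = 0.932). After trend removal it was -0.11 ± 0.22 (interval -0.58 to 0.37; limma, adjusted p = 0.987), and the pairs then differed in sign (-0.24 and 0.03). Of all tested probes, 7.67% were, like this one in the quantile-normalized values, lower in every wild-type pair and higher in both IL-1R1-/- pairs.

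Hey1 probe 7963 read 14.02 and 14.38 in IL-1R1-/- IL-1β cultures, against 14.83 and 14.63 in IL-1R1-/- vehicle cultures. Both pairs were lower with IL-1β (-0.81 and -0.25), as were 31.3% of all tested probes. The IL-1β arrays also lay below the vehicle arrays, which says little with 2 arrays per group, and no share of all probes was computed for it. The fitted change was -0.53 ± 0.25 (SE; 95% interval -1.07 to 0.02; limma, adjusted p = 0.652, unadjusted p = 0.0564), and with the trend removed -0.42 ± 0.18 (interval -0.80 to -0.04; limma, adjusted p = 0.708, unadjusted p = 0.0343). Both pairs were lower with the trend removed as well (-0.62 and -0.22), as were 28.4% of all tested probes. For IL-1R1-/- glia as a whole limma called 0% of the tested probes, that is 0 of 5713 (434 at an unadjusted p under 0.05).

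**Figure D3:**
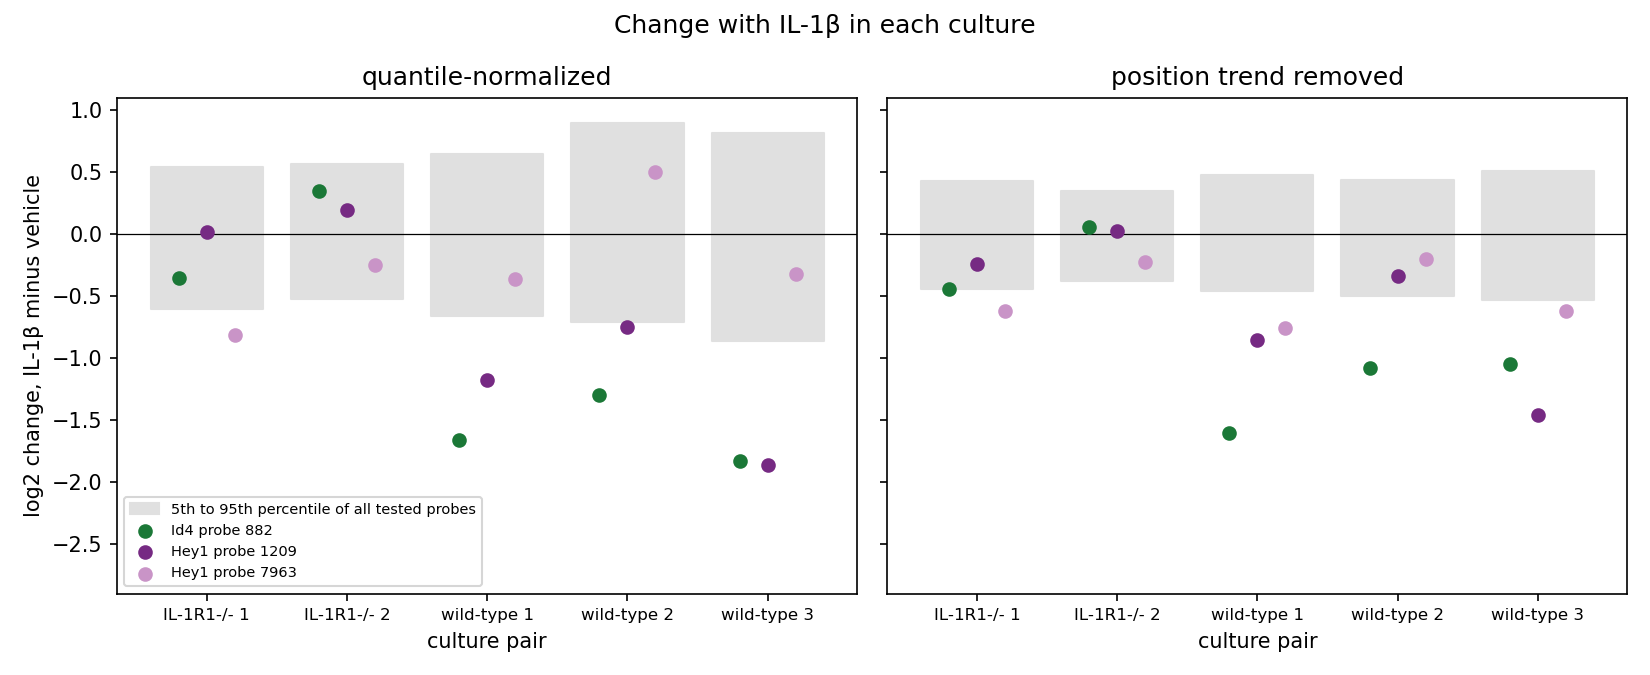
Change with IL-1β (log2, IL-1β minus vehicle) of the 3 probes in each culture pair, IL-1R1-/- cultures 1 and 2 and wild-type cultures 1 to 3, quantile-normalized on the left and with the position trend removed on the right; grey bars span the 5th to 95th percentile of all tested probes. Id4 lies under the grey bar in every wild-type pair in both panels, and Hey1 probe 1209 in every wild-type pair except culture 2 with the trend removed. Both genes were chosen by their wild-type change.

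Set side by side, the IL-1β change of Id4 was higher in IL-1R1-/- than in wild-type glia by 1.60 ± 0.30 (log2, SE), or 1.05 ± 0.24 with the trend removed. For Hey1 probe 1209 the difference was 1.38 ± 0.33, or 0.77 ± 0.28 with the trend removed. For Hey1 probe 7963 it was -0.47 ± 0.33, or 0.11 ± 0.23 with the trend removed, and thus changed sign. These differences hold the wild-type contrast that chose the members and carry no test here. Over all probes 0.158% passed the test of this difference by limma, on either scale, all of them in the negative direction: in the positive direction of Id4 and Hey1 probe 1209 it was 0%.

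Across the 4 groups, mean Id4 was 14.83 ± 0.60 in IL-1R1-/- IL-1β, 14.83 ± 0.10 in IL-1R1-/- vehicle (SD, n = 2 each), 14.02 ± 0.58 in wild-type IL-1β and 15.61 ± 0.48 in wild-type vehicle (SD, n = 3 each). Wild-type vehicle had the highest mean and wild-type IL-1β the lowest; the 2 IL-1R1-/- groups between them did not differ beyond their spread. The arrays of IL-1R1-/- IL-1β overlapped with both wild-type groups. Those of IL-1R1-/- vehicle lay below all wild-type vehicle arrays, as at 13.1% of all tested probes. They lay above all wild-type IL-1β arrays, for which no share of all probes was computed. With the trend removed, IL-1R1-/- vehicle (14.93 to 15.01) overlapped with wild-type vehicle (14.91 to 16.14). Hey1 probe 1209 averaged 15.18 ± 0.46 in IL-1R1-/- IL-1β, 15.07 ± 0.34 in IL-1R1-/- vehicle, 14.23 ± 0.18 in wild-type IL-1β and 15.50 ± 0.51 in wild-type vehicle (SD, same n). Wild-type IL-1β was the lowest group without overlap with any other, as at 1.38% of all tested probes (0.735% with the trend removed, where Hey1 probe 1209 was again among them), while the other 3 overlapped. For Hey1 probe 7963 the means were 14.20 ± 0.26, 14.73 ± 0.14, 14.28 ± 0.24 and 14.34 ± 0.24 in the same 4 groups; IL-1R1-/- vehicle was highest, its arrays lying above those of the other 3 groups, which overlapped, as at 3.22% of all tested probes; with the trend removed they overlapped with wild-type vehicle.

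Between genotypes without IL-1β, Id4 was lower in IL-1R1-/- vehicle than in wild-type vehicle glia, at a fitted difference of -0.78 ± 0.34 (log2, SE) and with every IL-1R1-/- array below every wild-type array, as for 13.1% of all tested probes. Trend removal gave a difference of -0.43 ± 0.30, and the groups then overlapped. Leaving out 1 culture moved the quantile-normalized Id4 difference between -0.50 (without wild-type culture 1) and -1.04 (without wild-type culture 3). Hey1 probe 1209 differed by -0.42 ± 0.31 (trend removed -0.07 ± 0.28), with overlap, and by -0.18 (without IL-1R1-/- culture 1) to -0.69 (without wild-type culture 2) leaving out 1 culture. Without normalization between arrays both turned sign, to 1.07 ± 1.11 (SE) for Id4 and 1.52 ± 1.11 for Hey1 probe 1209. Such values also hold the brightness of each array. Median intensities of the vehicle arrays were 32303 and 58788 in IL-1R1-/- and 18006, 4649 and 24314 in wild-type glia. Hey1 probe 7963 differed by 0.39 ± 0.27 (trend removed 0.06 ± 0.21); its IL-1R1-/- arrays lay above every wild-type array, as for 15.3% of tested probes, but not with the trend removed. These differences share the wild-type vehicle arrays with the contrast that chose the members and were not tested for them. Over all probes 0.0175% passed by limma, as higher in IL-1R1-/- glia, and 0% as lower.

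Over the 10 arrays, Id4 and Hey1 probe 1209 had a Pearson r of 0.803 in quantile-normalized values, with 52 other genes closer to Id4, and of 0.633 with the trend removed (94 genes closer). The 2 Hey1 probes had r = 0.287 with each other, and 0.758 with the trend removed; Id4 and Hey1 probe 7963 had 0.215 and 0.781. The genes most like Id4 among 3996 others were Rfc1, a subunit of the clamp loader of DNA replication (r = 0.932), Mns1 (0.913), Sugct (0.912), Pan2, part of a poly(A)-shortening nuclease (0.909), and Nr2f1, an orphan nuclear receptor (0.893). With the trend removed they were Pcmtd2 (0.958), Tagln3 (0.948), Sox9, a transcription factor of glial progenitors and astrocytes (0.920), Sugct (0.876) and Nr2f1 (0.869), so Sugct and Nr2f1 stood in both sets. In quantile-normalized values r with Id4 was -0.022 for Pcmtd2, 0.828 for Tagln3 and 0.480 for Sox9. Those most like Hey1 probe 1209 were Ctnnd1, a catenin at cell junctions (0.938), Slc38a1, a glutamine transporter (0.933), Cops4, a COP9 signalosome subunit (0.931), Kif4, a mitotic kinesin (0.929), and Sox3, a transcription factor of neural progenitors (0.927). With the trend removed they were Odf2l (0.945), Cops4 (0.934), Rfc1 (0.923), Acvrl1, a type I receptor for BMP9 and BMP10 (0.888), and Clk2, a kinase of splicing factors (0.884), with Cops4 in both sets. The 10 arrays share cultures and groups, and all 10 genes named from the quantile-normalized values lie in the same part of the probe list as the member they resemble, so these r values are a description. Id4 and Hey1 were also chosen by their change on the wild-type arrays among these 10, which by itself favours a high r between them.

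Few of the other pathway genes passed the test. Besides the members, 192 genes of the Id, Hes and Hey, Notch, bHLH and BMP lists were looked for, 69 had a probe and 50 had a value on all 10 arrays. In wild-type glia 2 of the 50 rose and 0 fell by limma (4%, against 6.18% of all tested probes, 4.55% higher and 1.63% lower; 16 of the 50 had an unadjusted p under 0.05), with a median change of -0.07, against -0.05 over 3995 other named genes. With the trend removed 0 of 50 passed (8 at an unadjusted p under 0.05; 0.473% of all probes passed) and the median was 0.00. In IL-1R1-/- glia, in the difference between genotypes and in the vehicle genotype difference, 0 of 50 passed by limma, with 6, 10 and 3 at an unadjusted p under 0.05. Over all 5713 tested probes, 1205 had an unadjusted p under 0.05 (limma) in wild-type glia and 637 with the trend removed. The counts were 434 in IL-1R1-/- glia, 804 in the difference between genotypes and 489 in the vehicle genotype difference. Lists counted a gene by its brightest probe.

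The nearest relatives of the members gave few values. Of the Id family only Id4 was tested. Of the Hes and Hey family the only other gene tested was Heyl, a further Notch-responsive repressor, at -0.05 ± 0.21 in IL-1R1-/- and -0.07 ± 0.17 in wild-type glia (log2 change ± SE). Hes1, the classical Notch target, had gaps: its IL-1β change was -0.32 in IL-1R1-/- culture 1 and -0.23, -0.04 and 0.31 in wild-type cultures 1, 2 and 3, so its wild-type pairs differed in sign.

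The upstream Notch genes did not pass the test in either genotype. Of 5 ligands, receptors and ligand regulators, 0 passed in wild-type glia (1 at an unadjusted p under 0.05, limma). The largest wild-type changes were -0.49 for Cntn1, a contactin that binds Notch, -0.25 for the receptor Notch4 and -0.21 for the ligand Jag2, whose other probe gave 0.59; in IL-1R1-/- glia they were 0.12, 0.12 and 0.00. The trend-removed wild-type changes were -0.09 for Cntn1, 0.04 for Notch4 and 0.06 for Jag2 (other probe 0.14), so that the last 2 turned sign. Of 7 processing enzymes, 0 passed (4 unadjusted, beside 1205 of all 5713 tested probes). The γ-secretase subunits Psen2 and Psenen had wild-type changes of 0.62 and -0.56, and the sheddase Adam10 -0.51; with the trend removed these were 0.04, -0.40 and -0.59.

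Among 11 nuclear partners and modulators of Notch, 2 rose in wild-type glia, both of them transcriptional co-repressors. Ctbp1 changed by 0.81 ± 0.20 (SE; limma, adjusted p = 0.0357) and Tle4, a Groucho protein, by 0.64 ± 0.17 (limma, adjusted p = 0.0479). With the trend removed these were 0.13 and 0.05 and neither passed. Ctbp1 also missed the threshold without IL-1R1-/- culture 2 (0.80), wild-type culture 1 (0.85) or wild-type culture 2 (0.54), and Tle4 without any 1 of the 5 cultures (0.44 to 0.75). Neither passed without a replicate block (limma, adjusted p = 0.438 for Ctbp1 and 0.527 for Tle4) or with genotypes fitted alone (0.0535 and 0.0929); Ctbp1 was also lost with all 12 columns (0.0515), and Tle4 with the brightest 75% of probes (0.0523) or gaps kept (0.0549). In IL-1R1-/- glia Ctbp1 changed by 0.89 ± 0.25 (limma, adjusted p = 0.601) and Tle4 by -0.15 ± 0.21 (limma, adjusted p = 0.895).

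Of the partners that Id proteins bind, 1 E protein was tested, Tcf4, with a wild-type change of 0.06 (trend removed -0.46) and 0.57 in IL-1R1-/- glia. Of 4 tissue-restricted and glial bHLH factors 0 passed in wild-type glia (1 unadjusted, limma); the largest changes were -0.45 for Olig2, which specifies oligodendrocyte progenitors, 0.33 for Hand1 and -0.21 for Twist1. Of 10 bHLH-zipper and bHLH-PAS factors 0 passed (2 unadjusted), led by Mlxipl, a glucose-responsive factor, at 0.53, Max, the partner of Myc, at -0.46, and Mxd4, a Max partner that opposes Myc, at -0.42. Of 11 BMP and SMAD genes 0 passed by their brightest probe (3 unadjusted), led by Bmp1, a procollagen protease, at -0.59, the receptor Acvrl1 at -0.58 and the shared signal carrier Smad4 at -0.51. After trend removal the wild-type values were -0.26 for Bmp1, -0.24 for Acvrl1, -0.30 for Smad4, 0.26 for Mlxipl, -0.22 for Max and -0.45 for Mxd4, and Twist1 turned sign (0.12). Dimmer probes gave wild-type changes of 0.26 for Mxd4, -0.23 for Max, -0.28 and -0.01 for Bmp1 and -0.31 for Twist1. With the trend removed these were 0.30 for Mxd4, 0.04 for Max, 0.04 and 0.07 for Bmp1 and -0.07 for Twist1. The Mxd4 probes thus differed in sign on both scales. Of the SMAD genes, Smad3, which carries TGF-β rather than BMP signals, had a dimmer probe (4932) that rose by 1.04 in wild-type glia (limma, adjusted p = 0.00732) while its brightest probe gave 0.20; with the trend removed they gave 0.39 and 0.26, and neither passed, and probe 4932 did not pass without a replicate block (limma, adjusted p = 0.169).

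**Figure D4:**
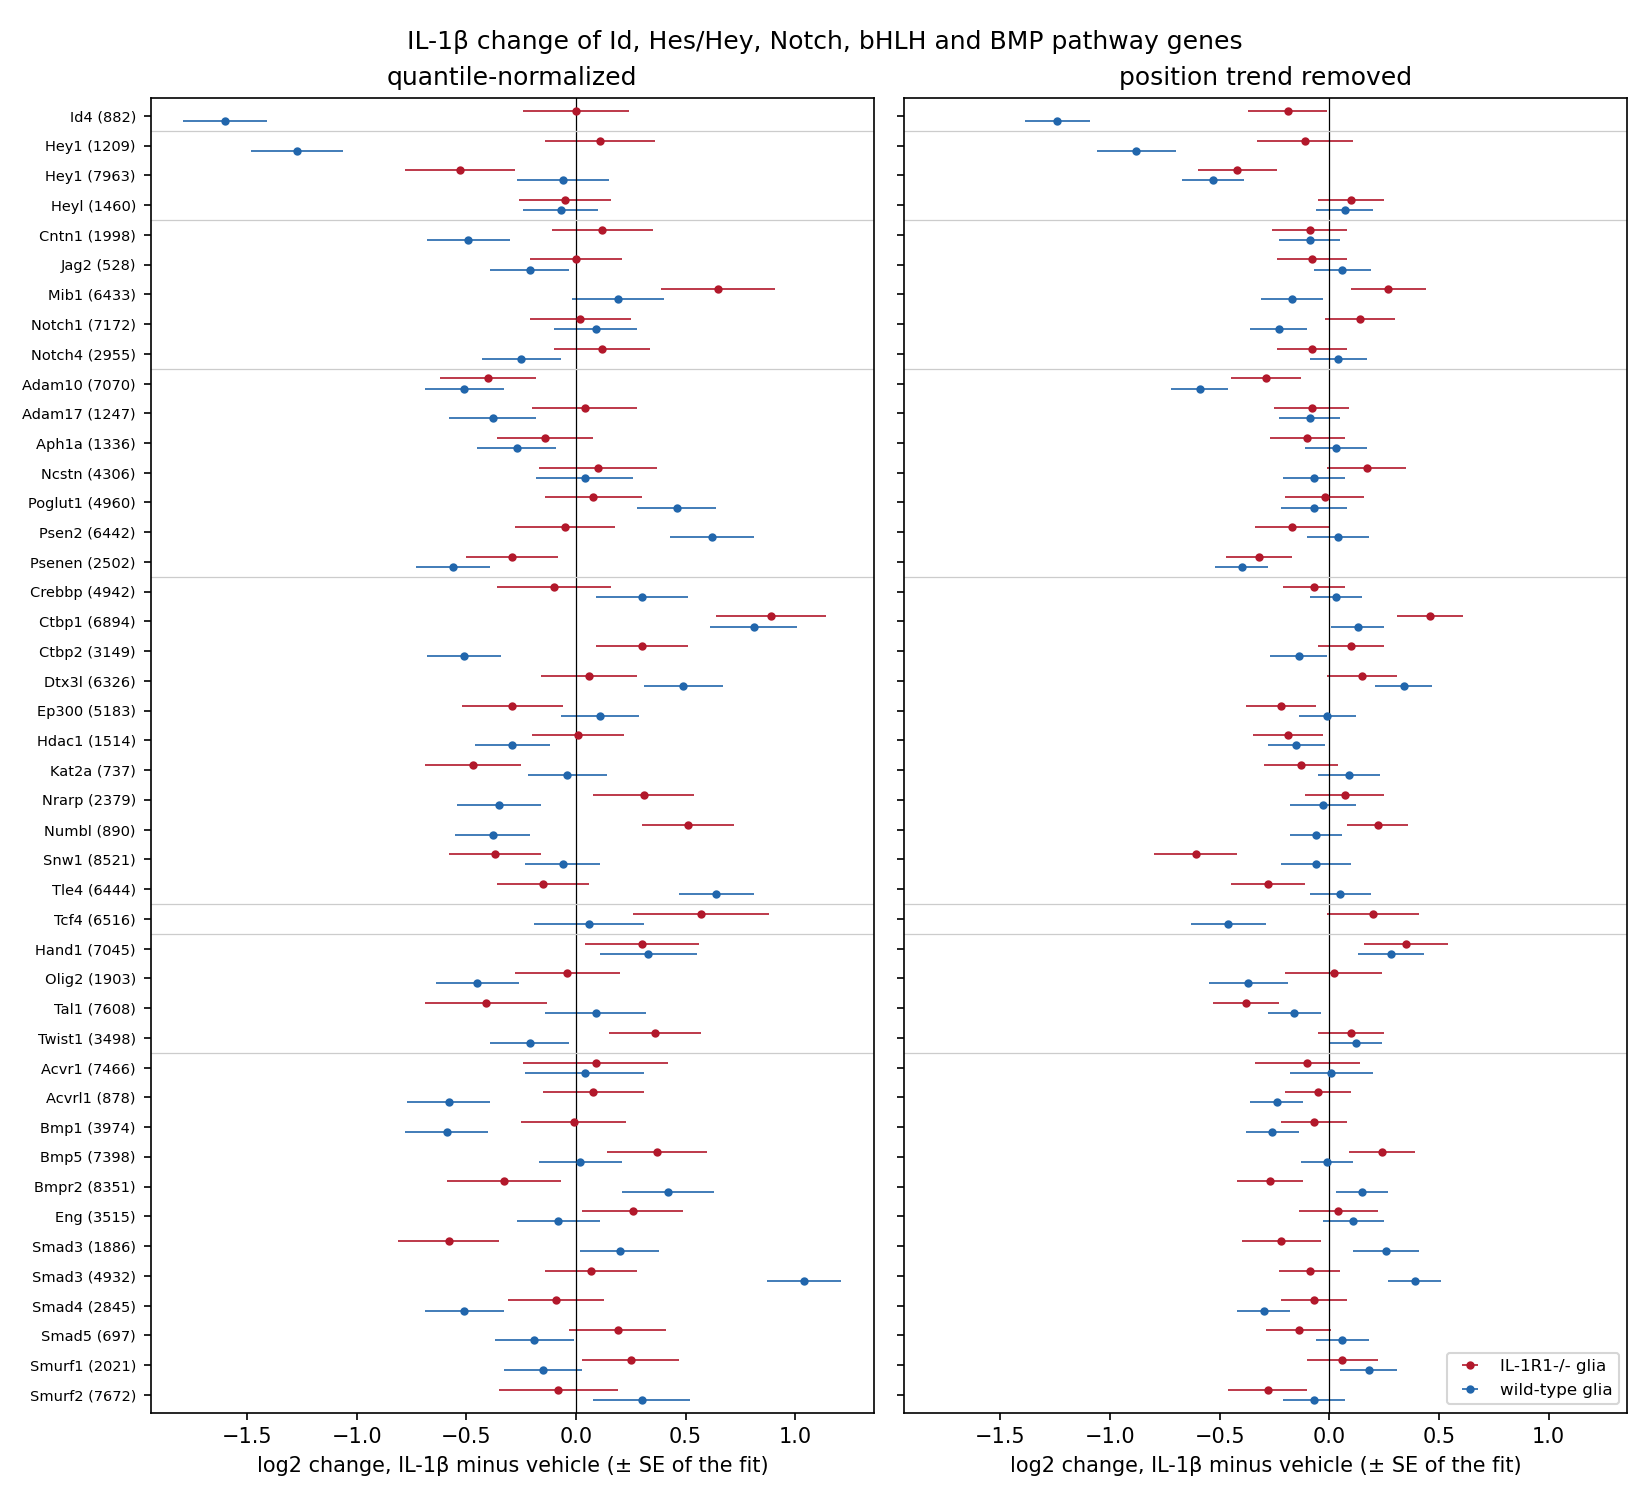
Change with IL-1β (log2, IL-1β minus vehicle, ± SE of the fit) of the members and of the tested Id, Hes and Hey, Notch, E protein, glial bHLH and BMP genes, probe number in brackets, in IL-1R1-/- and wild-type glia, quantile-normalized on the left and with the position trend removed on the right; the bHLH-zipper and bHLH-PAS list is not drawn. Id4 and Hey1 probe 1209 stand to the left of every other gene in wild-type glia in both panels, and the wild-type values of Ctbp1, Tle4 and Smad3 probe 4932 lie nearer 0 on the right. Id4 and Hey1 were chosen by their wild-type change, which by itself favours this place.

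Markers of the cell types that a mixed glial culture can hold were set beside these values. Astrocytes make Id4, and 3 of 14 astrocyte markers were tested: Glul, glutamine synthetase, fell in wild-type glia by 0.84 ± 0.20 on the log2 scale (limma, adjusted p = 0.0291), but its other probe gave -0.10, and with the trend removed the first gave -0.58 (limma, adjusted p = 0.112). The Glul call was also lost without a replicate block (limma, adjusted p = 0.32) and without IL-1R1-/- culture 2 (-0.87), wild-type culture 2 (-0.75) or wild-type culture 3 (-0.72). Sox9 gave -0.20 (trend removed -0.62) and the glutamate transporter Slc1a2 0.10. Summed over the 3 genes, the astrocyte level was 83203 to 122681 in IL-1R1-/- IL-1β, 92186 to 134281 in IL-1R1-/- vehicle, 91283 to 96667 in wild-type IL-1β and 123558 to 150410 in wild-type vehicle. This sum was lower with IL-1β in wild-type glia without overlap, and overlapped in IL-1R1-/- glia. Glul, the brightest of the 3 (mean log2 15.84, against 15.05 for Sox9 and 13.88 for Slc1a2), weighs most in it. Of single probes 7.39% lay without overlap in this way, and no share was computed for sums of 3 genes. The part of the astrocyte level in the Id4 and Hey1 results was not tested.

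Of 15 microglia and macrophage markers 4 were tested and 0 passed in wild-type glia (1 at an unadjusted p under 0.05, limma), with a summed level of 158787 to 223012 in wild-type IL-1β and 211870 to 229300 in wild-type vehicle, which overlap. Of 11 endothelial and mural markers 6 were tested and 1 rose, Emcn, endomucin, by 0.84 (limma, adjusted p = 0.0187); a dimmer probe of the pericyte gene Rgs5 also rose, by 0.69 (limma, adjusted p = 0.0389), while its brightest probe gave 0.22 and its other probe 0.32 (limma, adjusted p = 0.547 and 0.43). Neither Emcn nor Rgs5 passed with the trend removed or without a replicate block. Emcn missed the threshold without wild-type culture 1 (0.85) or 2 (0.83), and Rgs5 without any culture but wild-type culture 3 (0.54 to 0.69). Oligodendrocyte lineage, neuron and meningeal fibroblast markers had 2 tested genes each, of 11, 10 and 9, and 0 passed in wild-type glia by limma (0, 0 and 1 at an unadjusted p under 0.05). None of these lists' part in the results was tested.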

How the data were processed

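The authors deposited 1 table of linear intensities, 1 value per probe and array, with no values below 0 and gaps at some probes; image software, background correction and any scaling: not given in the sources used here. Column medians differ widely, so no common scale between arrays is assumed. Of 8734 probes, 7153 had 1 annotated gene symbol, 387 several and 1194 none. The deposited intensities were log2-transformed, quantile-normalized over 10 arrays and fitted with limma 3.58.1 (lmFit, eBayes; R 4.3.3) on the 5713 probes (65.4%) complete on all of them, with Benjamini-Hochberg adjustment over all of these probes, a threshold of 0.05 and two-sided tests. IL-1β effects had culture as a fixed block and 1 term per genotype; the vehicle genotype difference used a mean per group and took culture as a random block (duplicateCorrelation, statmod 1.5.0, correlation 0.388). The study's design text pairs treatments within replicates, and same-numbered arrays deviated together (r = 0.562 in IL-1R1-/- glia and 0.468, 0.582 and 0.261 in wild-type glia). The position trend was removed by subtracting each array's loess surface (span 0.2) over rows and columns of inferred 384-well plates, in 2 parts of the list. The members and all gene lists were chosen with earlier results of these data known. Named besides the members were every tested Id, Hes and Hey gene, each other list gene past the threshold in a comparison or, where none passed, the 3 with the largest wild-type change, and the 5 genes most correlated with Id4 and with the brighter Hey1 probe. The number of arrays limits the precision. Alternatives were median centring, no normalization, no replicate block, all 12 columns, the brightest 75% of probes, probes with gaps, genotypes fitted alone and each culture pair left out.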

Additional observations from a re-analysis of the deposited data

Results flagged for a closer look

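In quantile-normalized values, Hey1 probe 1209 was lower with IL-1β in all 3 wild-type pairs. It was higher in both IL-1R1-/- pairs (0.20 and 0.02). This opposite sign in every pair is why it is listed here. In the deposited intensities both IL-1R1-/- pairs were lower instead, at 0.981 and 0.897 times vehicle in cultures 1 and 2. The IL-1β change was 1.38 higher (log2) in IL-1R1-/- than in wild-type glia. The difference was not tested for this probe, since the wild-type change chose it. The same split of signs was seen at 7.67% of all tested probes, the value of 0.02 equals the median of all probes in that pair, and the split was lost with the position trend removed, where IL-1R1-/- culture 1 gave -0.24.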

How the results depend on the processing

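The wild-type change of Id4 was below 0 under all 12 alternatives that gave a value (-1.79 to -1.24, the smallest with the position trend removed), and so was that of Hey1 probe 1209 (-1.55 to -0.88); Hey1 probe 7963 ranged from -0.53 to 0.08 over 13. In IL-1R1-/- glia the lowest adjusted p of the 3 probes under any alternative was 0.907, 0.787 and 0.136 (limma). Without a replicate block, limma called 14 probes in wild-type glia and 0 in the difference between genotypes, against 353 (260 higher) and 9 with it. Counts of calls in wild-type glia were 27 with the trend removed, 150 (139 higher) with all 12 columns, 633 with gaps kept, 175 with genotypes fitted alone and 54 to 343 leaving out 1 culture pair. In IL-1R1-/- glia 0 calls became 177 with median centring (1 higher), 153 without normalization (1 higher), 108 with genotypes fitted alone and 0 to 1 leaving out a pair. The 9 calls of the difference became 264 with median centring (21 higher), 240 without normalization (19 higher), 30 with gaps kept and 3 to 69 leaving out a pair. The 1 call between vehicle genotypes became 102 with median centring, 0 to 32 leaving out a pair, and 0 with the trend removed, no normalization, all 12 columns, the brightest 75% of probes, gaps kept or vehicle arrays alone. With the trend removed, the difference between genotypes was 1.05 for Id4, 0.77 for Hey1 probe 1209 and 0.11 for Hey1 probe 7963, whose vehicle genotype difference was 0.06. Without normalization the vehicle genotype differences were 1.07, 1.52 and 2.19 (SE 1.11 each), which also hold the brightness of each array. Leaving out a pair, the quantile-normalized differences ranged from -1.04 to -0.50, -0.69 to -0.18 and 0.27 to 0.49. The IL-1R1-/- change of Hey1 probe 1209 was -0.11 with the trend removed, -0.12 with median centring and -0.09 without normalization. The cause of these moves was not tested. All 12 columns gave no value for Id4 and Hey1 probe 1209, which have gaps in the copied columns. With 2 IL-1R1-/- pairs, small changes there could not be detected, and larger ones could be missed as well. Ctbp1, at 0.89 ± 0.25 (log2, SE) in IL-1R1-/- glia, did not pass (limma, adjusted p = 0.601). The signal over background was not analysed here.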

Other observations

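Dtx4, a Deltex protein that binds the Notch receptor inside the cell, had 2 probes with gaps and so was not tested; it was picked here after its values were seen. Probe 2495 changed with IL-1β by 0.50 and 0.18 (log2) in IL-1R1-/- cultures 1 and 2, and by -0.70 and -1.22 in wild-type cultures 2 and 3, with no value in wild-type culture 1. Probe 8163 changed by 0.28 and -0.10 in IL-1R1-/- cultures 1 and 2, and by -0.51 and -1.95 in wild-type cultures 1 and 2, with no value in wild-type culture 3. No share of all probes and no trend-removed value was computed for these pairs; probe 2495 stands in the first part of the probe list, where 84.5% of tested probes were below 0 in wild-type glia.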
